A study of Rattus norvegicus with 9 samples.

Results

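Nuclear-encoded genes of the mitochondrial respiratory chain were examined in cultured pinealocytes of the rat, the cells of the pineal gland that make melatonin. Genes were taken by symbol, as every row of the deposited all-gene tables whose name begins with Ndufa, Ndufb, Ndufc, Ndufs, Ndufv, Uqcr, Atp5 or Cox4 to Cox8, or is Sdha, Sdhb, Sdhc or Sdhd. The rule used no measured value. It returned 88 of 26854 genes, and 82 of these were among the 14876 genes with an adjusted p. Of the 88 genes, 73 encode structural subunits: 32 of complex I, 4 of complex II, 7 of complex III, 15 of complex IV and 15 of complex V. The other 15 are not subunits. They are 8 assembly factors of complex I and 7 paralogues, copies or other factors that share a symbol stem.

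The study knocked down Lhx4 or Bsx, homeobox genes of the pineal gland, to ask which adult pineal transcripts need either factor. Pinealocytes of adult Sprague-Dawley rats were dissociated with papain and grown as primary cultures. All cultures were transfected with Lipofectamine RNAiMAX and 40 nM Stealth siRNA: a negative control that targets no gene (siNT), an siRNA to Lhx4 (siLhx4) or an siRNA to Bsx (siBsx), with 3 libraries in each group. The medium was renewed at 24 h, and cells were collected on day 3. Each target was reduced with a single siRNA sequence, and the labels do not say whether the 3 libraries came from separate cultures or animals, so p-values measure the spread between these samples, which may be technical.

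The respiratory chain sits in the inner mitochondrial membrane. Complex I takes electrons from NADH and complex II from succinate, and both pass them through ubiquinone to complex III and through cytochrome c to complex IV, which reduces oxygen. Complexes I, III and IV pump protons, and complex V, the ATP synthase, uses the resulting gradient to make ATP. Complex II is encoded entirely in the nucleus, whereas the other complexes also hold subunits made inside mitochondria, which were not analysed here. Pinealocytes are rich in mitochondria, and NRF1, the ETS-family factor GABP and YY1 are known regulators of nuclear respiratory genes in mammals.

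For all genes, the authors deposited mean normalised read counts and fold changes but not, in the files used here, values per library. Group means given below were therefore computed from the authors' deposited mean and fold change, and their errors are standard errors of the log2 fold change. Normalised counts were not divided by transcript length, so levels are compared between groups and not between genes. In the 14 genes with values per library, none of them a respiratory chain gene, Lhx4 had 18963, 18331 and 19156 normalised counts in the siNT libraries and 3420, 3634 and 3551 in the siLhx4 libraries, and these groups did not overlap. By the authors' deposited tables, Bsx fell by 79.3% with siBsx and fell by 44.8% with siLhx4, while Lhx4 was 10.5% higher with siBsx.

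Some cell type markers passed a DESeq2 adjusted p of 0.05 with each knockdown, beside 17.7% of all tested genes with siLhx4 and 17.2% with siBsx. Of 15 tested pinealocyte markers, 10 fell and 0 rose with siLhx4, and 6 fell and 6 rose with siBsx. These counts include the siRNA targets Lhx4 and Bsx themselves, whose own falls were set by the design. The summed group means were 610160 (siNT), 462675 (siLhx4) and 575400 (siBsx) normalised counts. Tph1 alone made up most of each sum, with 455480 for siNT, 348154 for siLhx4 and a mean of 435309 over the siNT and siBsx libraries together. Of 9 tested fibroblast markers, 4 rose with siLhx4 and 3 fell with siBsx, with sums of 5674, 7426 and 4708. Of 7 tested astrocyte markers, 2 rose with siLhx4 and 3 fell with siBsx, with sums of 10700, 13204 and 9083, and the defining astrocyte genes Gfap and Aqp4 had siNT means of 11.7 and 6.29. Of 4 microglial markers 1 rose with siBsx, of 7 endothelial markers 1 rose with siLhx4, and of 6 muscle markers 1 fell with siLhx4 and 1 rose with siBsx. These lists had sums of 480, 879 and 457 normalised counts with siNT, of 453, 1226 and 425 with siLhx4, and of 532, 901 and 846 with siBsx. No marker found in the tables was at exactly 0. Fewer cells of a type, less RNA per cell and changed transcription of the marker genes themselves cannot be told apart in such bulk libraries. The part of these shifts in the results below was not tested.

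With siLhx4, most respiratory chain transcripts stayed close to their siNT level, and the largest change was in Atp5a1, the alpha subunit of the catalytic F1 head of ATP synthase. By the authors' deposited table, 3 of 82 tested genes rose and 3 fell at a DESeq2 adjusted p under 0.05, or 7.32% together. Across all 14876 tested genes, 17.7% passed this threshold, 8.07% higher and 9.59% lower. Because well-covered genes are called more often, the background was also taken over genes with at least 1000 mean normalised counts in both tables: 27.9% of 5981 such genes were called, against 5 of 64 such respiratory chain genes. The median log2 fold change of the 82 genes was -0.02, beside 0.003 for all tested genes. A 95% interval within 25% of the siNT level in both directions was found for 71 of the 82, beside 6405 of all 14876 tested genes. With at least 1000 counts, such an interval was found for 60 of 64 respiratory chain genes, beside 4613 of 5981.

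Atp5a1 had a mean of 20946 normalised counts with siNT, 13986 with siLhx4 and 23519 with siBsx. The siLhx4 mean was the low one, and the siBsx mean lay above siNT. By the authors' deposited table, Atp5a1 fell by 33.2% with siLhx4 (log2 fold change -0.58 ± 0.041, SE; DESeq2 adjusted p = 9.1e-44, 3 against 3 libraries). The other genes of the F1 head and central stalk did not pass this test. In the authors' deposited table, Atp5b (beta, which carries the catalytic sites) was at -0.04 ± 0.044, Atp5c1 (gamma) at 0.008 ± 0.046, Atp5d (delta) at -0.16 ± 0.074 and Atp5e (epsilon) at -0.14 ± 0.11 on the log2 scale.

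Ndufb9 and Sdhc were the other genes that fell with siLhx4. Ndufb9, an accessory subunit in the membrane arm of complex I, went from 4314 normalised counts with siNT to 3575. By the authors' deposited table this was a fall of 17.1% (log2 -0.27 ± 0.051, with a DESeq2 adjusted p of 2.62e-06), and with siBsx Ndufb9 was at 4598 and did not pass. Sdhc, which anchors complex II in the membrane, went from 3580 to 3135, a fall of 12.4% in the authors' deposited table (-0.19 ± 0.053, with a DESeq2 adjusted p of 0.00321). The other anchor, Sdhd, was higher by 0.18 ± 0.084 in the same authors' deposited table and did not pass (with a DESeq2 adjusted p of 0.13).

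Ndufa10, Sdhb and Ndufaf1 rose with siLhx4. Ndufa10, an accessory subunit in the membrane arm of complex I, went from 2823 normalised counts with siNT to 3382, or 19.8% higher in the authors' deposited table (0.26 ± 0.063, with a DESeq2 adjusted p of 4.39e-04). Sdhb, the iron-sulfur subunit that carries electrons through complex II, went from 5276 to 5893, 11.7% higher in the authors' deposited table (0.16 ± 0.052, with a DESeq2 adjusted p of 0.0166). Ndufaf1, an assembly factor for the membrane arm of complex I, went from 450 to 579, 28.8% higher in the authors' deposited table (0.36 ± 0.13, with a DESeq2 adjusted p of 0.0278). Sdha, the flavoprotein of complex II that oxidises succinate, was at -0.07 ± 0.043 in the authors' deposited table and did not pass.

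**Figure D1:**
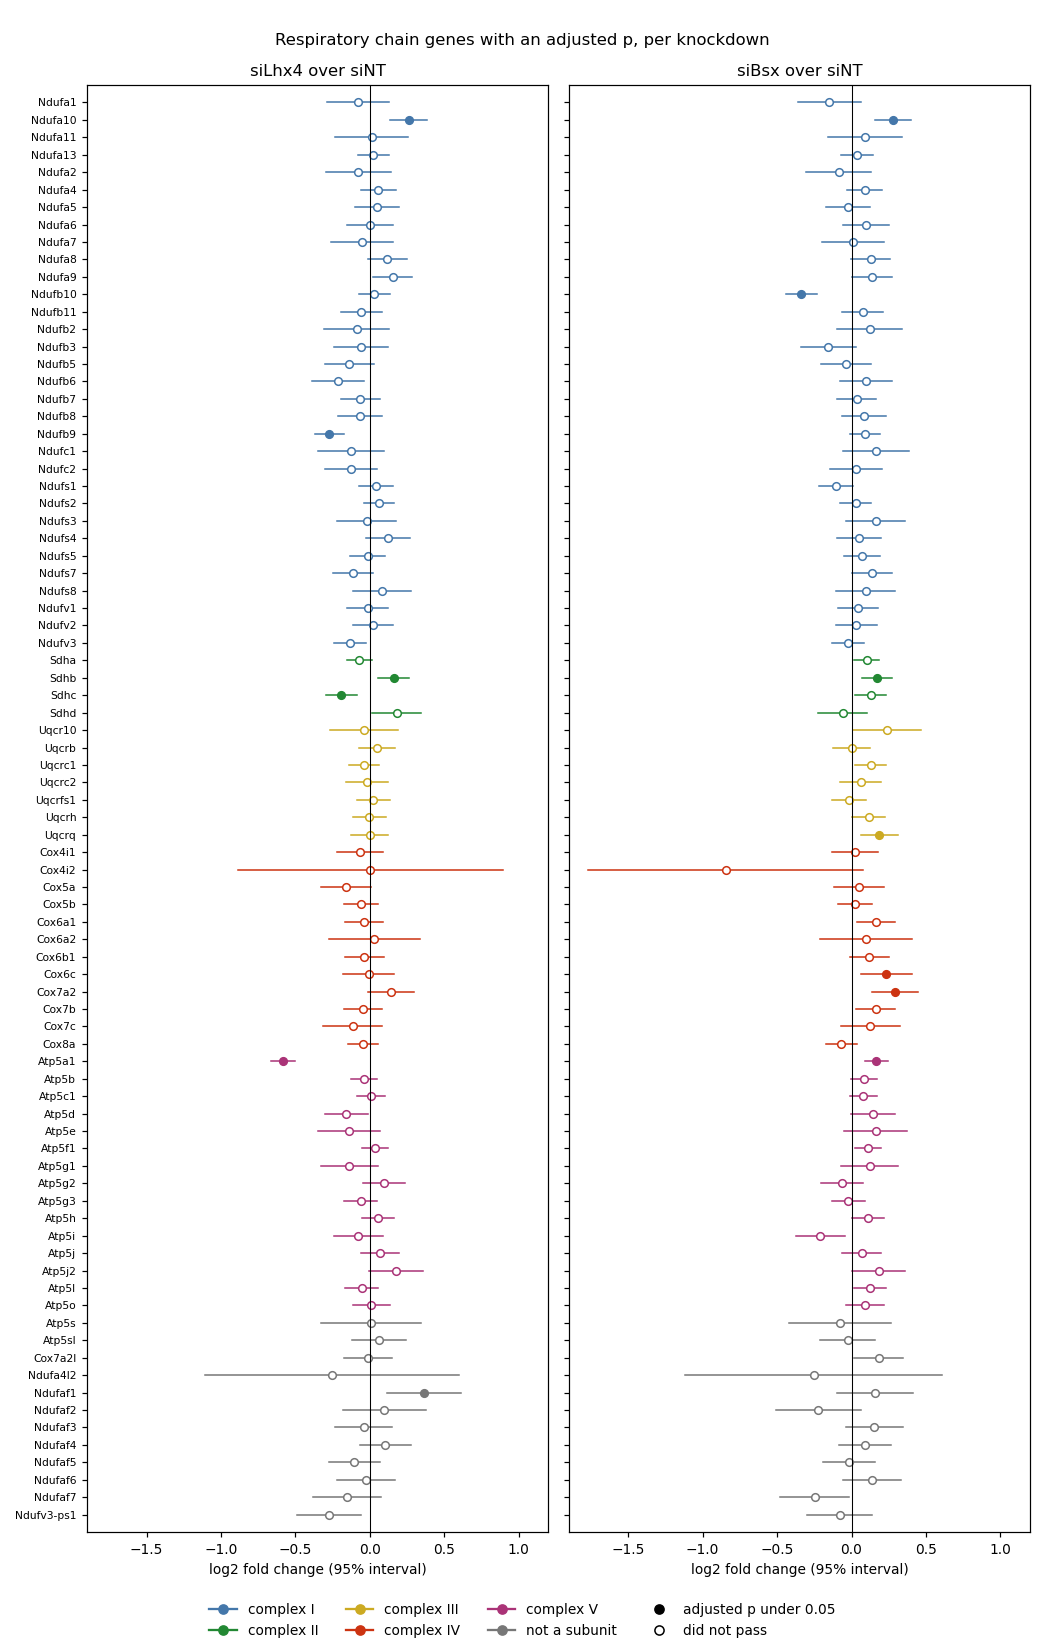
Log2 fold change over siNT of the 82 respiratory chain genes with an adjusted p, from the authors' deposited tables, with siLhx4 on the left and siBsx on the right. Points are estimates, lines are 95% intervals, colours are complexes and filled points have a DESeq2 adjusted p under 0.05; 6 points are filled with siLhx4 and 7 with siBsx.

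With siBsx, respiratory chain transcripts tended to lie slightly above siNT, and few single genes passed the test. By the authors' deposited table, 6 of 82 genes rose and 1 fell at a DESeq2 adjusted p under 0.05, or 8.54% together. The background over all tested genes was 17.2%, with 7.59% higher and 9.61% lower. Among the genes with at least 1000 mean normalised counts, 28.5% of 5981 were called, against 7 of 64 respiratory chain genes. The median log2 fold change of the 82 genes was 0.09, beside 0.0002 for all tested genes and 0.01 for those with at least 1000 counts. Of the 82 estimates, 60 were above 0, beside 7447 of all 14876 tested genes and 3148 of the 5981. The tilt was not particular to these genes, as 53 of 73 mitochondrial ribosomal protein genes were also above 0. A 95% interval within 25% of siNT was found for 60 of the 82 genes, beside 6219 of all 14876 tested genes. With at least 1000 counts, it was found for 54 of 64 respiratory chain genes, beside 4500 of 5981.

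Ndufb10, an accessory subunit in the membrane arm of complex I, was the gene that fell. Its means were 9123 normalised counts with siNT, 9317 with siLhx4 and 7224 with siBsx, so the siBsx mean was the low one. By the authors' deposited table, Ndufb10 fell by 20.8% with siBsx (log2 -0.34 ± 0.053, with a DESeq2 adjusted p of 6.74e-09), and with siLhx4 it was at 0.03 ± 0.053. Ndufa10 was the complex I gene that rose, from 2823 to 3423 normalised counts, 21.3% higher in the authors' deposited table (0.28 ± 0.063, with a DESeq2 adjusted p of 1.55e-04).

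The remaining genes that rose with siBsx belonged to complexes II to V. Sdhb went from 5276 to 5942 normalised counts, 12.6% higher in the authors' deposited table (0.17 ± 0.053, with a DESeq2 adjusted p of 0.00914). Uqcrq, a small accessory subunit of complex III, went from 3304 to 3755, 13.7% higher in the authors' deposited table (0.19 ± 0.064, with a DESeq2 adjusted p of 0.0249). Both small complex IV subunits that passed were also higher. Cox7a2 went from 1261 to 1544, 22.6% higher in the authors' deposited table (0.29 ± 0.080, with a DESeq2 adjusted p of 0.00243), and Cox6c from 4377 to 5142, 17.5% higher (0.23 ± 0.088, with a DESeq2 adjusted p of 0.0471). In the authors' deposited table Atp5a1 was 12.3% higher (0.17 ± 0.041, with a DESeq2 adjusted p of 5.02e-04), the opposite direction to its change with siLhx4. Both knockdowns were compared with the same siNT libraries, so the values of Ndufa10, Sdhb and Atp5a1 in the tables are not independent of each other.

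**Figure D2:**
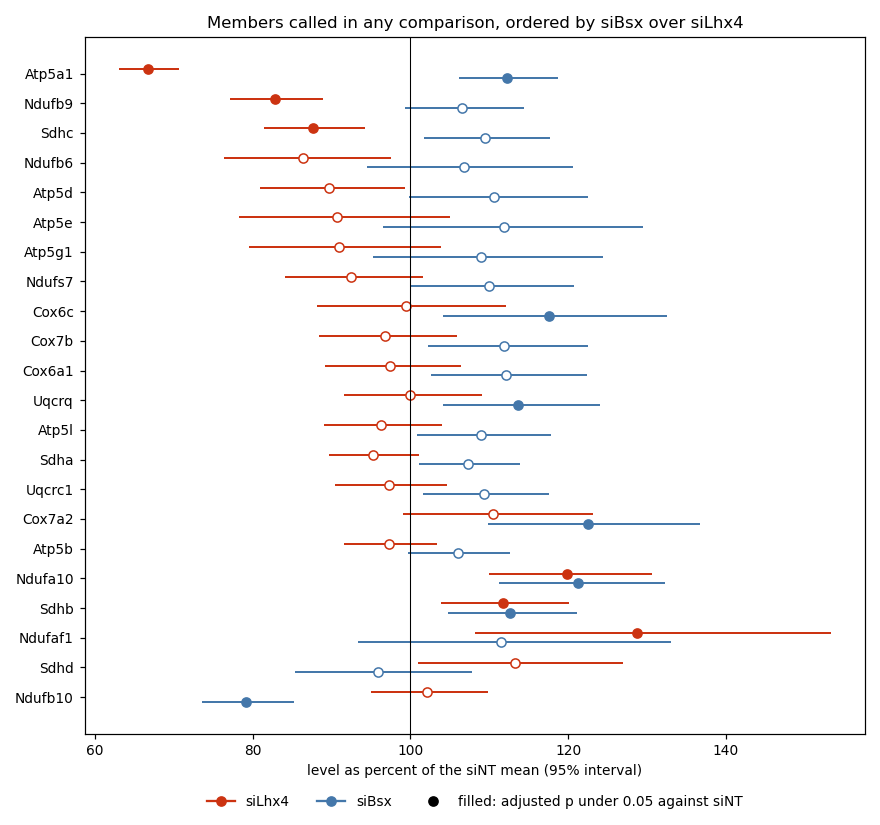
Level of the 22 respiratory chain genes called in any comparison, as a percentage of the siNT mean with its 95% interval, ordered from the largest to the smallest ratio of siBsx to siLhx4. Filled points have a DESeq2 adjusted p under 0.05 against siNT; Atp5a1 lies at 66.8% with siLhx4 and 112% with siBsx, and Ndufb10 at 102% and 79.2%.

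Comparing siBsx with siLhx4 directly removes the shared control. A Wald test was rebuilt from both deposited tables for this, with Benjamini-Hochberg adjustment over 14876 genes. By that test 16 of 82 respiratory chain genes were higher with siBsx than with siLhx4 and 2 were lower, or 22.0% together. Of all tested genes, 22.7% passed, 10.8% higher with siBsx and 11.9% lower. Among the 5981 genes with at least 1000 mean normalised counts, 34.3% passed, 19.1% higher and 15.1% lower, against 18 of 64 respiratory chain genes. With both directions pooled, the share called thus lay near or below the background. By direction, the share called higher lay above the background and the share called lower below it. Higher were 16 of 82 beside 10.8% of all tested genes, and lower 2 of 82 beside 11.9%. With at least 1000 counts the higher share lay closer to the background: 16 of 64 were higher beside 19.1%, and 2 of 64 lower beside 15.1%. These shares were not tested. The median difference over the 82 genes was 0.08 on the log2 scale, beside 0.002 for all tested genes.

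Of the genes past the threshold, Atp5a1 again had the largest difference, at 1.68-fold between siBsx and siLhx4 (log2 0.75 ± 0.041, rebuilt Wald test, adjusted p = 7.3e-73). In complex V, Atp5d (0.30 ± 0.074), Atp5e (0.30 ± 0.11), Atp5b (0.12 ± 0.044), the subunit c gene Atp5g1 (0.26 ± 0.098) and the membrane subunit g gene Atp5l (0.18 ± 0.056) were also higher. Thus 4 of 5 genes of the F1 head and central stalk passed, Atp5c1 being the exception at 0.07 ± 0.047. Of all tested genes, 10.8% were called higher, and 19.1% of those with at least 1000 counts. Whether the head and central stalk differed from other parts of complex V was not tested. The 4 genes of the peripheral stalk, which holds the head still (Atp5f1, Atp5h, Atp5j and Atp5o), had differences from -0.001 to 0.08, and 0 of 4 passed by the rebuilt Wald test, also at an unadjusted p under 0.05. In the authors' deposited tables none of these 4 passed against siNT, with log2 fold changes from 0.01 to 0.07 with siLhx4 and from 0.07 to 0.11 with siBsx, and 0 and 2 of them had an unadjusted p under 0.05.

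In complex I, Ndufb9 (0.36 ± 0.051), Ndufb6 (0.31 ± 0.090) and Ndufs7 (0.25 ± 0.069), a core subunit that holds an iron-sulfur cluster near the ubiquinone site, were higher with siBsx than with siLhx4. Ndufb10 was lower, at 0.775-fold (-0.37 ± 0.053, rebuilt Wald test, adjusted p = 1.22e-10). Of the 7 core subunits, Ndufs7 was thus called and the other 6 had differences from -0.15 to 0.18. Complex II split within its membrane anchor, as Sdhc was higher (0.32 ± 0.053) and Sdhd lower (-0.24 ± 0.084, rebuilt Wald test, adjusted p = 0.0241), while Sdha was higher by 0.17 ± 0.043 and Sdhb differed by 0.01 ± 0.052. In complex III, Uqcrq (0.19 ± 0.064) and the core protein Uqcrc1 (0.17 ± 0.053) were higher. In complex IV the called genes were the small subunits Cox6c (0.24 ± 0.088), Cox7b (0.21 ± 0.066) and Cox6a1 (0.20 ± 0.064). None of the 12 tested non-subunit genes passed by the rebuilt Wald test, beside 22.7% of all tested genes, and 3 of them had an unadjusted p under 0.05.

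The complexes were then set side by side by their medians, with no test between them. With siLhx4 the median log2 fold changes were -0.02 for complex I, 0.04 for II, -0.005 for III, -0.04 for IV and -0.04 for V. Complex III and complex IV had 0 of 7 and 0 of 12 tested genes past the DESeq2 threshold in the authors' deposited table, and 0 and 0 at an unadjusted p under 0.05. Of all tested genes, 17.7% passed that threshold with siLhx4. With siBsx the medians were 0.06 for complex I, 0.12 for II, 0.12 for III, 0.11 for IV and 0.11 for V. The 12 tested non-subunit genes had a median of -0.02 with either siRNA. With siBsx 0 of 12 passed the DESeq2 threshold in the authors' deposited table, beside 17.2% of all tested genes, and 2 of 12 had an unadjusted p under 0.05. Non-subunit genes were also measured less precisely. In the siBsx table their median count was 752, beside 3151 for the subunits, and their median standard error 0.105, beside 0.069. Between siBsx and siLhx4 the median differences were 0.06, 0.09, 0.12, 0.15 and 0.08 for complexes I to V and -0.006 for the non-subunits. Genes called higher and lower with siBsx relative to siLhx4 were 3 and 1 of 32 in complex I and 2 and 1 of 4 in II. They were 2 and 0 of 7 in III, 3 and 0 of 12 in IV and 6 and 0 of 15 in V. Both directions together made 12.5% of complex I, 75% of II, 28.6% of III, 25% of IV and 40% of V. The background was 22.7% of all tested genes and 34.3% of those with at least 1000 counts. Without Atp5a1, complex V had 0 of 14 genes called with siLhx4 and 0 of 14 with siBsx by DESeq2 in the authors' deposited tables, with 1 and 5 at an unadjusted p under 0.05, and 5 of 14 in the direct comparison.

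**Figure D3:**
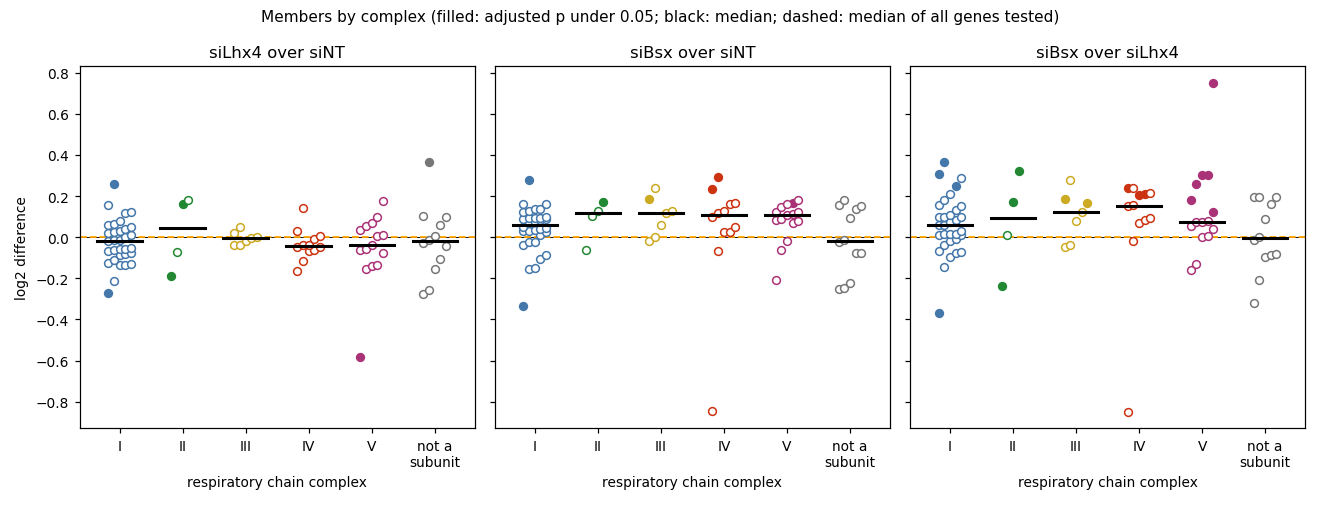
Log2 difference of each tested respiratory chain gene by complex, for siLhx4 over siNT, siBsx over siNT and siBsx over siLhx4. Each point is a gene, filled where the adjusted p is under 0.05, and black bars are medians; with siBsx the medians of complexes II to V lie at 0.11 to 0.12 and that of the non-subunit genes at -0.02, while the dashed median of all genes is at 0.0002.

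Several complex IV subunits exist as a ubiquitous and a tissue-restricted paralogue, and none of the tissue-restricted forms passed in any comparison. Cox4i1 had means of 11319 (siNT), 10821 (siLhx4) and 11522 (siBsx) normalised counts, and did not pass in any comparison. Cox4i2, whose product replaces the Cox4i1 product in lung, had means of 49.2, 49.1 and 27.5, and its siBsx value of -0.85 ± 0.47 in the authors' deposited table did not pass (with a DESeq2 adjusted p of 0.244). Cox6a1 had 3463, 3373 and 3881 normalised counts, whereas the heart and muscle form Cox6a2 had 467, 477 and 500.5. The testis form Cox6b2 and the heart and muscle form Cox8b had siNT means of 18 and 7.94 normalised counts and no adjusted p. Their partners Cox6b1 and Cox8a, with siNT means of 3017 and 4590, did not pass in any comparison. Cox7a2l, a relative of Cox7a2 that takes part in joining complexes III and IV, was at 0.18 ± 0.083 with siBsx in the authors' deposited table and did not pass (with a DESeq2 adjusted p of 0.124).

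Among the other paralogues, Ndufa4 had means of 2354, 2449 and 2505 normalised counts in the siNT, siLhx4 and siBsx groups, and its hypoxia-inducible relative Ndufa4l2 38.2, 32.0 and 32.1, with no call for either. Ndufa4 is counted here with complex I by its symbol, although in humans its product was assigned to complex IV. Atp5g1, Atp5g2 and Atp5g3 encode the same mature subunit c, which forms the rotating ring. In the authors' deposited tables they were at -0.14 ± 0.097, 0.10 ± 0.071 and -0.06 ± 0.058 with siLhx4 and at 0.12 ± 0.097, -0.06 ± 0.072 and -0.02 ± 0.058 with siBsx, and 0 of 3 passed DESeq2's test in either table or had an unadjusted p under 0.05. Besides Cox6b2 and Cox8b, the genes without an adjusted p were Cox8c, Atp5hl1, Cox6c1 and Ndufb4l1, with siNT means of 3.4, 20.5, 0.118 and 2.18 normalised counts.

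At the ends of the range of counts within each complex, no call was found in complex I for Ndufa11 (812 normalised counts with siNT) and in complex III for Uqcrb (5667) or Uqcr10 (753). Uqcr10 was at 0.24 ± 0.12 with siBsx in the authors' deposited table and did not pass (with a DESeq2 adjusted p of 0.156). Its 95% interval, which takes no account of the number of genes tested, reached from 0.822% to 38.1% above siNT. Atp5b, with 25166, 24497 and 26666 normalised counts in the siNT, siLhx4 and siBsx groups, was at 0.08 ± 0.044 with siBsx in the authors' deposited table and was called only between siBsx and siLhx4.

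Promoter sequences were available from RefSeq (assembly GRCr8) for 75 of the 88 genes, each covering 250 bases before to 50 bases after the annotated start. The windows of Atp5a1, Ndufa10 and Sdhb are shown because these genes were called with both siRNAs, and that of Ndufb10 because it fell with siBsx. They lie at chr18:73567287-73567586 (plus strand), chr9:100489215-100489514 (minus), chr5:158547684-158547983 (plus) and chr10:14255917-14256216 (minus), and capitals mark matches to the motifs described after them, on either strand.
Atp5a1: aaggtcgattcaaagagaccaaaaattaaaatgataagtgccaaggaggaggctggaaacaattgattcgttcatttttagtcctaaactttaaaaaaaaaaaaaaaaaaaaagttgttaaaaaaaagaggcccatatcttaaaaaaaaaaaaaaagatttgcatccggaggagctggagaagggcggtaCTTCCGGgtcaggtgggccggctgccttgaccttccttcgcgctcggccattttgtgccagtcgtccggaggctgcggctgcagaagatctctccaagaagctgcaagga
Ndufa10: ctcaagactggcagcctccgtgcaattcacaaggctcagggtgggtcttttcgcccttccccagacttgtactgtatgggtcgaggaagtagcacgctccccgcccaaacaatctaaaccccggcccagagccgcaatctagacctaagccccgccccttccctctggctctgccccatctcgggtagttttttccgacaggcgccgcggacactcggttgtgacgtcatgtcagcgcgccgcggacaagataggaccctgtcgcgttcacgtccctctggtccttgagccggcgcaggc
Sdhb: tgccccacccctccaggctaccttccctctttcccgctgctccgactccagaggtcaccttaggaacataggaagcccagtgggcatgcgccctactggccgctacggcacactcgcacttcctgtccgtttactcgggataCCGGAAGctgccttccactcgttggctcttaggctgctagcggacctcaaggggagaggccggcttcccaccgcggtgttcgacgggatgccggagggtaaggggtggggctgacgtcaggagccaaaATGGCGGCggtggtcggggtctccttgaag
Ndufb10: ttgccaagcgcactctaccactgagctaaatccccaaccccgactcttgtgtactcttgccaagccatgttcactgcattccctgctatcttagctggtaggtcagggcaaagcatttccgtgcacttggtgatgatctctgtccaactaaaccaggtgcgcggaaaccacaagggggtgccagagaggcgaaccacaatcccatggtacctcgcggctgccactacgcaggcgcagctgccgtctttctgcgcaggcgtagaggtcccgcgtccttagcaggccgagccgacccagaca

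Motifs were searched as exact letters on both strands, and none of the letter strings contains another. The homeodomain core TAATTA, which is its own reverse complement, was in 0 of the 75 windows, beside 5.35% of 27457 promoters, 1 for each gene symbol. The ETS motif CCGGAAG was in 21 of 75 windows (28%), beside 9.22% of all promoters, and is present in those of Atp5a1 and Sdhb. The NRF1 motif CGCATGCG was in 9 of 75 (12%), beside 1.81%, and the YY1 motif ATGGCGGC in 11 of 75 (14.7%), beside 2.76%, including Sdhb. Ndufa10 and Ndufb10 had none of these strings in the window. The median GC content was 57% over the 75 windows and 52.3% over all promoters. Of the 19 windows of called genes, 0 held TAATTA, 7 the ETS motif, 2 the NRF1 motif and 3 the YY1 motif. A match is a string of letters and not a measured binding site.

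Genes around the respiratory chain were counted from lists of their roles, beside backgrounds over all tested genes of 17.7% with siLhx4, 17.2% with siBsx and 22.7% between siBsx and siLhx4. Of 17 tested carriers and subunits outside the symbol rule, 1 rose and 2 fell with siLhx4 and 1 rose with siBsx in the authors' deposited tables. The mitochondrial phosphate carrier Slc25a3 (-0.32 ± 0.079) and the ADP/ATP carrier Slc25a5 (-0.24 ± 0.052), which supply ATP synthase with its substrates, fell with siLhx4. Coq9, which is needed for ubiquinone synthesis, was at 0.25 ± 0.075 with siLhx4 and 0.23 ± 0.076 with siBsx in the authors' deposited tables and passed in each. In the direct comparison 3 were higher and 1 lower with siBsx, namely Slc25a3 (0.48 ± 0.079), Slc25a5 (0.19 ± 0.053), Cyc1, the cytochrome c1 of complex III (0.18 ± 0.065), and Etfb, part of the electron transfer flavoprotein (-0.32 ± 0.083).

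Of 32 tested assembly factors outside the rule, 3 fell with siLhx4 and 0 rose in the authors' deposited table. Atpaf2, a chaperone that binds the alpha subunit during assembly of the F1 head, went from 1277 normalised counts with siNT to 838 with siLhx4 and 1216 with siBsx. Its log2 fold change with siLhx4 was -0.61 ± 0.10 in the authors' deposited table (with a DESeq2 adjusted p of 4.56e-08). Coa5 (-0.21 ± 0.065), for complex IV, and Sdhaf1 (-0.34 ± 0.11), for complex II, also fell. With siBsx, 0 of 32 passed by DESeq2 in the authors' deposited table and 3 had an unadjusted p under 0.05. The rebuilt Wald test between siBsx and siLhx4 gave 4 higher and 0 lower with siBsx, and 6 of 32 at an unadjusted p under 0.05: Atpaf2 (0.54 ± 0.10), the complex IV factors Cox20 (0.23 ± 0.075) and Sco1 (0.36 ± 0.12), and Atpaf1 (0.26 ± 0.10), which binds the beta subunit.

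Citrate cycle enzymes feed NADH and succinate to complexes I and II. Of 17 tested genes, the authors' deposited table had 3 that fell with siLhx4 (17.6%, beside the background of 17.7%): Sucla2, a subunit of succinyl-CoA ligase (-0.76 ± 0.063), Ogdh (-0.40 ± 0.054) and Idh2 (-0.39 ± 0.078). With siBsx 2 rose and 3 fell in the authors' deposited table, led by citrate synthase Cs (-0.57 ± 0.063), with Idh3a (-0.26 ± 0.051) and Idh2 (-0.27 ± 0.079) lower and Idh3g (0.27 ± 0.062) higher. By the rebuilt Wald test, 6 were higher and 3 lower with siBsx than with siLhx4, including Sucla2 (0.70 ± 0.063), Ogdh (0.38 ± 0.054), Mdh2 (0.30 ± 0.069) and Cs (-0.43 ± 0.063).

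Of 18 tested regulators of mitochondrial gene expression, 1 rose and 1 fell with siLhx4 and 4 rose with siBsx in the authors' deposited tables. Tfam, which packages mitochondrial DNA and is needed for its transcription, rose with siLhx4 (0.41 ± 0.094) and with siBsx (0.32 ± 0.095). Polrmt, the mitochondrial RNA polymerase, was lower with siLhx4 (-0.29 ± 0.076 in the authors' deposited table). Esrrg, a nuclear receptor that activates oxidative metabolism genes (0.56 ± 0.078), Ppargc1b, a coactivator (0.25 ± 0.081), and Lrpprc, which stabilises mitochondrial mRNA (0.20 ± 0.064), rose with siBsx. Set against siLhx4 directly, siBsx had 4 higher and 1 lower, among them Esrrg (0.50 ± 0.077), Polrmt (0.22 ± 0.077), Lrpprc (0.20 ± 0.064) and Tfb1m, a factor for mitochondrial ribosomal RNA (-0.42 ± 0.13). Mitochondrial ribosomal proteins, also nuclear-encoded, gave 2 higher and 2 lower of 73 with siLhx4 and 4 higher and 2 lower with siBsx, with medians of 0.06 and 0.07 in the authors' deposited tables, and 4 higher and 2 lower between siBsx and siLhx4, with a median of 0.007.

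Of 20 tested glycolysis genes, 7 fell and 1 rose with siBsx in the authors' deposited table. Together they were 40% of the list, beside 17.2% of all tested genes and 28.5% of those with at least 1000 counts, with a median log2 fold change of -0.13 beside 0.09 for the respiratory chain genes. Hexokinase Hk2 (-0.63 ± 0.052), triosephosphate isomerase Tpi1 (-0.58 ± 0.053) and the enolases Eno2 (-0.37 ± 0.054) and Eno1 (-0.27 ± 0.042) fell. With siLhx4, 2 rose and 2 fell in the authors' deposited table: Pgam1 (0.36 ± 0.049) and lactate dehydrogenase Ldha (0.42 ± 0.10) were higher, and Hk2 (-0.14 ± 0.051) and Ldhb (-0.21 ± 0.078) lower. Between siBsx and siLhx4, 11 of 20 (55%) were lower and 0 higher by the rebuilt Wald test, beside 22.7% of all tested genes and 34.3% of those with at least 1000 counts called in either direction, with a median of -0.18, including Tpi1 (-0.72 ± 0.053), Hk2 (-0.49 ± 0.052), Eno2 (-0.42 ± 0.054) and Eno1 (-0.29 ± 0.042). Whether glycolysis and the respiratory chain genes differed as groups was not tested.

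**Figure D4:**
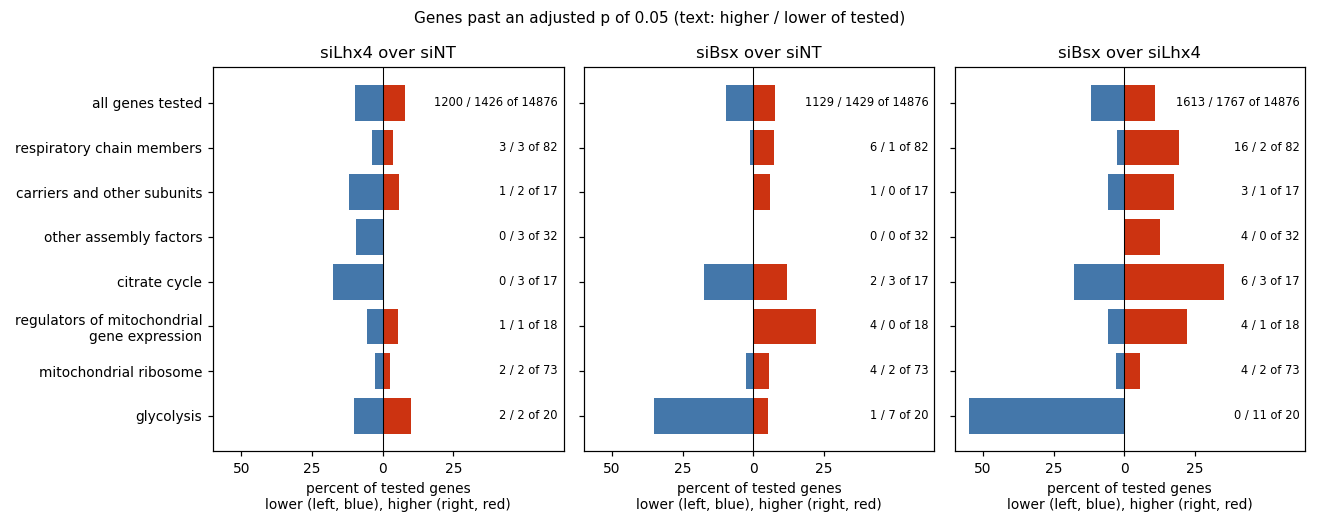
Share of tested genes past an adjusted p of 0.05, lower to the left and higher to the right, for siLhx4 over siNT, siBsx over siNT and siBsx over siLhx4, with the counts printed beside each bar. Between siBsx and siLhx4, the respiratory chain genes were 16 higher and 2 lower of 82 and the glycolysis genes 0 higher and 11 lower of 20.

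These calls rest on DESeq2's normal approximation with 3 libraries a group. When the same statistics were read against a t distribution with 4 degrees of freedom, 0 of the 82 genes passed with siLhx4 and 0 with siBsx, the Atp5a1 adjusted p with siLhx4 became 0.0665, and 1 gene, Atp5a1, passed between siBsx and siLhx4. That reading called 0 of all 14876 tested genes with siLhx4, 36 with siBsx and 291 between siBsx and siLhx4. The counts of 0 are therefore not particular to the respiratory chain genes.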

How the data were processed

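RNA of cultured pinealocytes was sequenced in 9 libraries after ribosomal RNA depletion with a stranded total RNA kit, and the barcoded libraries shared a flow cell, per the labels' protocols. The tools named are bcl2fastq 2.20.0.422, STAR 2.5.4a, DESeq2 1.16.1 and featureCounts with Subread 1.5.2, with the build rn6, per the submitters' processing notes. The annotation used, whether strand was counted and how multiply matching reads were treated are not given in the sources used here. Genes with near-identical copies, such as Ndufv3 and Ndufv3-ps1 or Cox6c and Cox6c1, and genes with overlapping or antisense partners are therefore uncertain. As signal, the authors deposited the mean normalised count over both groups of a table, with size factors taking up differences in depth. On the log2 scale, the authors deposited each fold change relative to siNT, and for siBsx also its standard error. The score is the Wald statistic that the authors deposited for siBsx. The authors deposited p-values without adjustment and with Benjamini-Hochberg adjustment, the latter for 14876 genes with means of at least 19.8 (siLhx4) and 20.8 (siBsx) normalised counts.

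Depth per library is not known from these tables, and the precision of each gene is given by its standard error. No model was refitted, because values per library were given for 14 genes chosen by the authors and for none of the respiratory chain genes. For siLhx4, the standard error was obtained by dividing the log2 fold change by the normal quantile that its p-value implies. Group means were computed from mean and fold change. The siNT means of the tables had ratios of 0.998 to 1.01 over the tested respiratory chain genes, and computed means of the 14 genes had ratios of 0.997 to 1.00 to the deposited ones. The direct comparison of siBsx with siLhx4 used a Wald test on the difference of log2 fold changes, with dispersions derived from the siBsx table at equal size factors. The siLhx4 table's dispersions had a median ratio of 0.979 to these. The test was also run on counts simulated with the same dispersions that it was then given. Such a run cannot show whether these dispersions or equal size factors suit the real libraries. Scripts used Python 3.11.15, pandas 2.3.3, numpy 2.4.6, scipy 1.17.1 and matplotlib 3.10.9.

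Genes named are those past an adjusted p of 0.05 in any comparison, the highest and lowest mean of each complex, paralogue pairs, genes without an adjusted p, and up to 4 genes by smallest p of each surrounding list. The genes, the lists and the tests were chosen with earlier results of these data known. The mitochondrial ribosome list, the background of genes with at least 1000 counts and the counts without Atp5a1 were added after seeing the data. Promoters came from RefSeq GRCr8 and no coordinate of rn6 was used. Alternatives were other thresholds, a t reference, other filters on low means, centring on the median of all genes, subunits only, and dispersions of the siLhx4 table.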

Additional observations from a re-analysis of the deposited data

How the results depend on the processing

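No paired analysis was possible because the tables give no value per library for the respiratory chain genes, and for the same reason leaving out each library was not run. The numbers of genes called were 3 higher and 3 lower with siLhx4, 6 and 1 with siBsx, and 16 and 2 for siBsx against siLhx4. At an adjusted p of 0.01, 1 gene was higher and 3 were lower with siLhx4, 4 and 1 with siBsx, and 11 and 1 in the direct comparison. At an adjusted p of 0.1, 4 genes were higher and 6 lower with siLhx4, 12 and 2 with siBsx, and 22 and 5 in the direct comparison. Against a t distribution with 4 degrees of freedom, 0 higher and 0 lower passed with siLhx4, 0 and 0 with siBsx, and 1 and 0 in the direct comparison. That alternative called 0 of all 14876 genes with siLhx4, 36 with siBsx and 291 in the direct comparison. The siLhx4 statistics were derived from DESeq2 p-values with a floor of 1e-200, which caps them. Lhx4 itself was at that floor and did not pass, so the 0 with siLhx4 cannot be set against the 36 with siBsx. None of the respiratory chain genes was at the floor. Centring on the median of all genes, a mean of at least 50, no filter on low means, subunits only and, for the direct comparison, dispersions of the siLhx4 table left the 6 counts within 1.5 times those given. The medians with siLhx4, with siBsx and between them moved by less than the median standard error of a gene with a mean of at least 50, subunits only, centring on the median of all genes or without Atp5a1. Of 31 single results, 10 lost their call at an adjusted p of 0.01, 3 with no filter on low means and 30 with the t distribution. Direction was not put to a test, because all settings kept the same fold changes except centring, which moved them only slightly.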
